A study of Mus musculus with 89 samples.

Results

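Among the 16s rRNA gene sequence variants of mouse feces, 155 belonged to the class Clostridia and were assigned to no family or to a family other than Lachnospiraceae. They were chosen by their taxonomy, as the variants whose class was Clostridia and whose family was empty or not Lachnospiraceae, from the 434 variants with a taxonomy entry in a count table of 4065 variants. The remaining 203 Clostridia variants were Lachnospiraceae. The samples came from 13 adult male C57BL/6J mice, 6 of them sham-injured (all of the surgery except the impact) and 7 given a controlled cortical impact (CCI), a model of traumatic brain injury. Before surgery all mice had their bowel flushed with polyethylene glycol and were then inoculated repeatedly with pooled cecal contents of conventional male mice. They were co-housed with bedding mixed among all cages before surgery, and by injury group, with bedding mixed only within each group, afterwards. Feces were collected before surgery (0 d) and at 1, 2, 3, 7, 14 and 28 d after it, which gave 89 columns of reads from 13 animals, with 12 animals at 3 and 14 d. The column names gave an animal number and a collection time but no injury group, so sham and CCI mice were pooled throughout and each animal was compared with its own pre-injury collection. Surgery, anesthesia, growth, housing and the time since the last inoculation all moved with collection time and cannot be told apart here. Totals ranged from 10266 to 201686 reads per column, with a median of 78985, so that 3 reads, the limit that a count of 0 allows, amounted to between 0.00149 and 0.0292% of a column. Intervals and limits of this kind cover counting error only.

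Clostridia outside Lachnospiraceae are a varied set of gut anaerobes, most of them known from the cecum and colon, where they ferment fiber, mucus sugars and amino acids. Ruminococcaceae include degraders of cellulose and resistant starch, Oscillospiraceae include slow-growing butyrate and valerate producers that thrive on a stable and largely undisturbed gut, and Monoglobus is a specialist of pectin. Several large groups, among them Clostridia UCG-014 and the Clostridia vadinBB60 group, have few or no cultured members and carry only the names of the sequence clusters in which they were found.

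The 155 variants held 8.639% of all reads. Oscillospirales were the largest order with 93 variants and 67.2% of the members' reads, followed by Clostridia UCG-014 (30 variants, 14.2%) and the Clostridia vadinBB60 group (18 variants, 7.73%). Monoglobales held 2 variants and 4.84% of these reads, Peptostreptococcales-Tissierellales 9 variants and 3.94%, Peptococcales 2 variants and 1.14%, and Lachnospirales 1 variant and 0.923%. A family was named for 104 of the variants and a genus for 63. No member fell in Clostridiaceae, Christensenellaceae or the Eubacterium coprostanoligenes group, in Candidatus Arthromitus (the segmented filamentous bacteria that attach to the ileal epithelium), in the orders Clostridiales or Christensenellales, or in Clostridia without an order. This covers only variants with a taxonomy entry, which held 98.5% of all reads and were each in at least 9 columns. The 3631 variants without an entry could not be placed, so rare members of these taxa may have been missed. The sequenced fragments were alike in length, with 153 of the 155 within 3 bases of the median of 416 bases, and the other 2, both Peptococcaceae, were 438 and 440 bases long. Their GC content ran from 47.5 to 60.6%. Among families its median was lowest in Clostridia UCG-014 (48.4%), where all variants lay between 47.5 and 49.4%, and highest in Monoglobaceae (54.4%), with 53.4% in Oscillospiraceae and 53.9% in Ruminococcaceae.

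Summed over the members, the share of a column's reads had a median of 10.3% before surgery (lowest 4.19%, highest 12.6%) and of 10.3% at 1 d (5.22 to 18.5%). The median was then 9.01% at 2 d (4.16 to 20.6%), 7.52% at 3 d (3.29 to 14.5%), 7.33% at 7 d (3.10 to 13.01%), 6.54% at 14 d (4.49 to 14.6%) and 7.75% at 28 d (2.58 to 12.1%). The ranges of all 7 collections overlapped, and animals did not move together. Compared with its own pre-injury value, the sum was higher at 1 d in 10 of 13 animals, with a mean change of 1.58 percentage points ± 3.99 (SD, n = 13). It was lower in 9 of 13 animals at 7 d (-1.29 points ± 3.19) and in 8 of 13 at 28 d (-2.21 points ± 4.20), and at 14 d it was higher in 6 animals and lower in the other 6 (-2.25 points ± 4.00). Each of these mean changes was smaller than the SD between animals, and the sum was given no test because it is a value over chosen members. The highest single value, 20.6% (95% Wilson interval 20.3 to 20.8%), came from animal 151 at 2 d, and the lowest, 2.58% (2.38 to 2.80%), from animal 162 at 28 d.

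**Figure D1:**
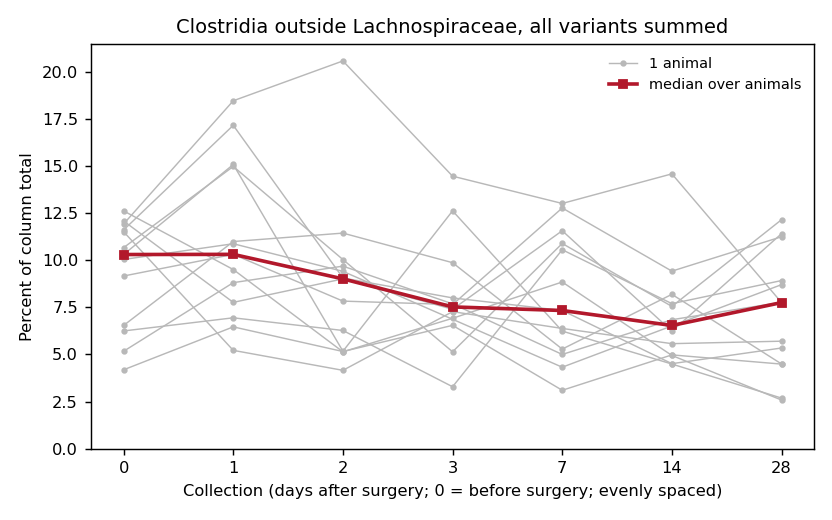
Percent of column total (vertical axis) held by the 155 variants at each collection (horizontal axis, days after surgery, evenly spaced), with a grey line for each of 13 animals and a red line for the median. The median went from 10.3% before surgery to 6.54% at 14 d while the ranges of the collections overlapped.

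Ruminococcaceae, a family known for breaking down plant fiber, were represented by 31 variants and held a median of 2.85% of reads before surgery (1.43 to 4.07%). Their median was 3.05% at 1 d, 1.72% at 2 d, 1.76% at 3 d, 1.67% at 7 d, 1.42% at 14 d (0.752 to 4.34%) and 1.65% at 28 d. The family was lower than its own pre-injury value in 11 of 13 animals at 7 d, in 9 of 12 at 14 d and in 9 of 13 at 28 d, although the ranges overlapped at each of them. Counts were summed by family, or by order where no family was named. On these sums, with the animal as a block, edgeR's quasi-likelihood test found a change in Ruminococcaceae over the 6 later collections as a whole (adjusted p = 0.0260 over 28 families). Of the single collections, the family fell by 0.80 on the log2 scale at 14 d (SE 0.23, edgeR adjusted p = 0.0128), and the fits at 2, 3, 7 and 28 d gave -0.50, -0.70, -0.55 and -0.39 with adjusted p-values of 0.0960 or more. The overall change was lost without animals 150, 152 or 162 (edgeR adjusted p = 0.0631, 0.110 and 0.0725) and without the collections at 3 and 14 d (0.502), and the call at 14 d was lost without animals 152 or 158.

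Within Ruminococcaceae, 2 variants of Ruminococcus, a genus with cellulose and starch degraders, carried 12.7% of all member reads. Ruminococcus variant 1 had a median of 0.302% before surgery (0 to 2.28%), 0.634% at 7 d (0 to 3.27%) and 0.303% at 28 d (0 to 1.62%). Its mean over collections ranged from 0.0630% in animal 149, where only 2 of 7 columns held it, to 1.77% in animal 161. Ruminococcus variant 2 had a median of 0.737% before surgery and of 0.300% at 28 d, with reads in 11 and 12 animals. It was near absent from animal 158, with reads in 2 of 7 columns and a mean of 0.00362%, the same animal in which variant 1 averaged 0.909%. Neither variant passed the test of time (edgeR adjusted p = 0.810 and 0.962). The 7 variants placed in the family's Incertae Sedis genus summed to a median of 0.723% before surgery and 0.395% at 7 d, when all 13 animals were below their own pre-injury value, by a mean of 0.745 points (SD 0.719). At 1 and 28 d their sum was lower in 8 and 10 of 13 animals. The most abundant of them, Incertae Sedis variant 1, had a median of 0.179% before surgery and 0.132% at 7 d, with ranges of 0 to 1.41% and 0.00928 to 0.362% and did not pass the test of time (edgeR adjusted p = 0.962). None of the 27 Ruminococcaceae variants tested passed edgeR's test of time on its own, beside 6.37% of all 377 variants tested. Anaerotruncus, a genus of 3 variants, had a median of 0.116% before surgery and 0.0425% at 7 d, when it was lower in 12 of 13 animals. Paludicola (3 variants), Caproiciproducens (1) and Harryflintia (1) had medians of 0.0344, 0.0133 and 0.0108% before surgery and of 0.0178, 0 and 0.0114% at 28 d, and the 14 variants without a genus of 0.471 and 0.352%.

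Oscillospiraceae were the family with most members, 55 variants, of which 25 had reads in all 13 animals. Their median was 3.68% before surgery (0.853 to 6.00%), 3.10% at 1 d, 3.70% at 2 d (1.43 to 9.50%), 2.46% at 3 d, 1.89% at 7 d (0.672 to 5.02%), 1.86% at 14 d and 2.21% at 28 d (0.770 to 6.63%). The family was lower than before surgery in 9 of 13 animals at 7 d and in 7 of 13 at 28 d, and its overall change did not pass the threshold (edgeR adjusted p = 0.0703). It passed by DESeq2 (adjusted p = 0.0119), and with edgeR without animal 151 (0.0194) and at 10000 reads per column (0.0468). Oscillospiraceae variant 1, without a genus, was the only member with reads in all 89 columns, at medians between 0.234 and 0.447% over the collections. Oscillibacter, a genus known for valerate and butyrate, had 17 variants with a summed median of 0.872% before surgery (0.245 to 2.41%) and 0.676% at 28 d (0.203 to 3.07%). Its most abundant variants, Oscillibacter variants 1 and 2, had medians of 0.139 and 0.155% before surgery, 0.253 and 0.164% at 2 d, and 0.0928 and 0.130% at 7 d, and no time effect was called (edgeR adjusted p = 0.204 and 0.810). The genera with 1 or 2 variants were lower still, with pre-injury medians of 0.0974% for UCG-005, 0.0707% for Intestinimonas, a butyrate producer, and 0.0219% for the NK4A214 group.

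Colidextribacter, a poorly characterized genus of the same family, had 14 variants whose sum had a median of 0.964% before surgery (0.308 to 2.56%) and of 0.460% at 7 d (0.161 to 0.883%). All 13 animals were below their pre-injury value at 7 d, 10 of 12 at 14 d and 12 of 13 at 28 d. The change of the genus had a mean of -0.655 points ± 0.574 (SD, n = 13) and a median of -0.484 at 7 d, and a mean of -0.555 ± 0.719 and a median of -0.183 at 28 d. The mean change of Colidextribacter variant 1 alone was -0.4959 ± 0.487 at 7 d and -0.5003 ± 0.570 at 28 d. On average this variant held the fourth largest share of the 155. Its median was 0.567% before surgery (0.0362 to 1.72%, reads in 13 of 13 animals), 0.608% at 1 d, 0.387% at 2 d, 0.258% at 3 d, 0.144% at 7 d (0 to 0.349%), 0.0497% at 14 d (0 to 1.26%) and 0.170% at 28 d (0 to 0.503%). At 14 and at 28 d only 8 animals had any of its reads. It was lower than before surgery in all 13 animals at 7 d, in 10 of 12 at 14 d and in 12 of 13 at 28 d, the exception at 28 d being animal 155. With the animal as a block it fell by 3.04 on the log2 scale at 7 d (SE 0.73, edgeR adjusted p = 0.0289), by 3.17 at 14 d (SE 0.78, adjusted p = 0.0147) and by 3.19 at 28 d (SE 0.76, adjusted p = 0.00360). Its mean fell by less than these fits, from 0.645% before surgery to 0.149% at 7 d, 0.255% at 14 d and 0.145% at 28 d. The ranges overlapped with those before surgery, when the level ran from 0.0362% in animal 159 to 1.72% in animal 149. Leaving out animals 149, 152, 154, 159, 160 or 162 in turn took the call at 7 d away, with fitted changes between -3.26 and -2.61 over all 13 omissions, and leaving out animals 159 or 162 took away the call at 14 d.

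**Figure D2:**
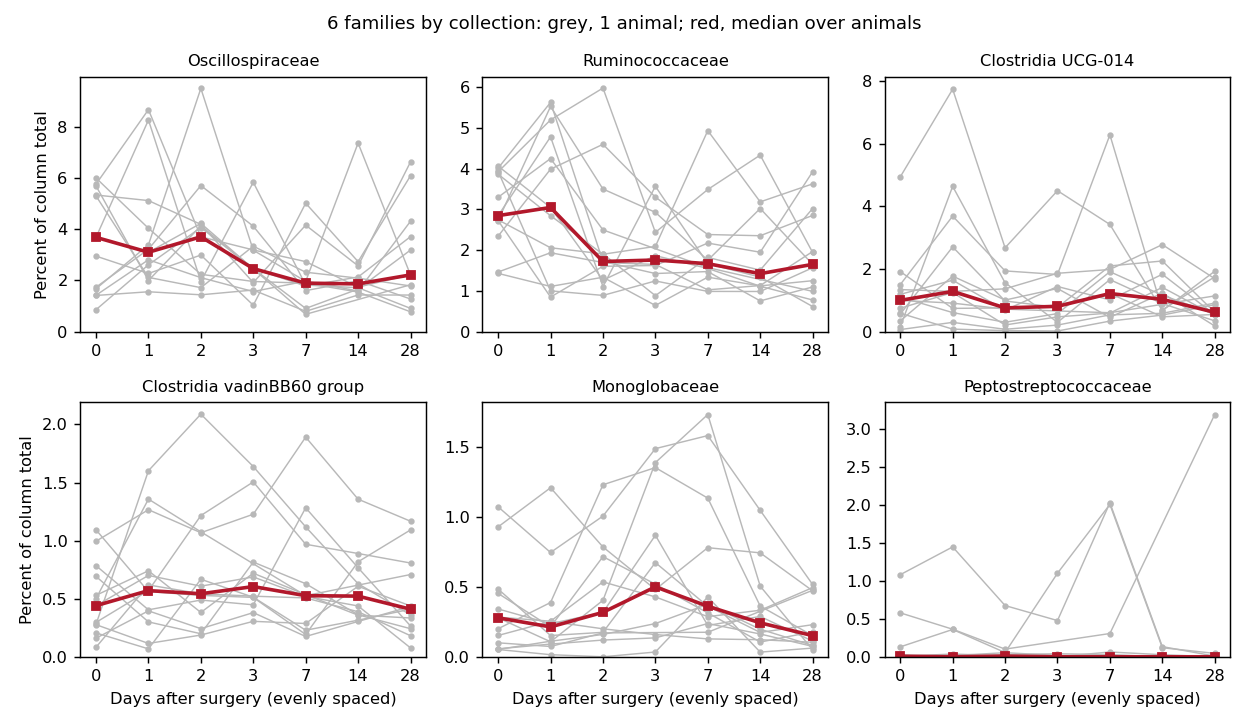
Percent of column total (vertical axes, a scale for each panel) at each collection (horizontal axes, days after surgery, evenly spaced) for 6 families, with a grey line for each animal and a red line for the median. Ruminococcaceae went from a median of 2.85% before surgery to 1.42% at 14 d, Monoglobaceae were highest at 3 and 7 d in a few animals, and Peptostreptococcaceae stayed near 0 in most.

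Monoglobaceae were 2 variants of Monoglobus, pectin degraders, and together had a median of 0.278% before surgery (0.0521 to 1.07%), 0.5001% at 3 d (0.0341 to 1.49%), 0.361% at 7 d (0.128 to 1.73%) and 0.151% at 28 d (0.0504 to 0.517%). The family was above its pre-injury value in 10 of 12 animals at 3 d and in 8 of 13 at 7 d, and below it in 8 of 13 at 28 d. It passed the overall test of time (edgeR adjusted p = 0.0260) but at no single collection, the fits at 3 and 7 d being 0.82 (SE 0.42) and 1.13 (SE 0.43) with adjusted p-values of 0.223 and 0.208. The call over all collections was lost without animals 151, 152, 155, 158 or 162 (edgeR adjusted p = 0.164, 0.0656, 0.0624, 0.113 and 0.0725). Limma on centred log-ratios did not give it (adjusted p = 0.0790), nor did edgeR with no filter on low counts (0.166) or without the block (0.551). Monoglobus variant 1 had a median of 0.0998% before surgery and 0.315% at 3 d, above the pre-injury value in 10 of 12 animals, and was present in 11 to 13 animals at each collection, without passing the test (edgeR adjusted p = 0.303). Monoglobus variant 2 had a median of 0.195% before surgery with reads in 10 animals, a median of 0 at 1 and 2 d with reads in 5 animals at each, and a median of 0.232% at 7 d (0 to 1.62%) with reads in 10. At 28 d the variant again had a median of 0, with reads in 6 animals and a mean of 0.0832%. It changed over time (edgeR adjusted p = 0.0409), and the fits at 1 and 2 d (-4.07 and -4.08 on the log2 scale) did not pass alone and were far larger than the fall of its mean, from 0.196% before surgery to 0.102% at both. The overall call for variant 2 was lost in 9 of the 13 fits that left out an animal (150, 151, 152, 153, 154, 155, 158, 159 or 161). Whether the variants differed from each other in time course was not tested.

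Clostridia UCG-014, an uncultured order, differed widely between animals (edgeR adjusted p = 1.21e-05). Its 30 variants summed to a median of 0.993% before surgery (0.0615 to 4.93%), 1.28% at 1 d (0.0760 to 7.73%), 1.21% at 7 d (0.332 to 6.28%) and 0.612% at 28 d (0.175 to 1.92%). Animal 151 averaged 3.69% over its collections and reached 7.73% at 1 d (95% Wilson interval 7.52 to 7.95%), whereas animals 149 and 152 averaged 0.378 and 0.345%. Much of the level in animal 151 was Clostridia UCG-014 variant 3, found in all 7 of its columns at a mean of 1.61%, in 4 of 7 columns of animal 159 (0.589%) and 6 of 7 of animal 161 (0.213%), and in no column of 6 animals. Clostridia UCG-014 variants 1 and 2 were in all 13 animals, with medians of 0.0824 and 0.124% before surgery and 0.163 and 0.134% at 28 d, and neither passed the test of time (edgeR adjusted p = 0.383 and 0.962). The order as a whole did not pass (edgeR adjusted p = 0.235). The 18 variants of the Clostridia vadinBB60 group, also uncultured, had a median of 0.440% before surgery (0.0823 to 1.09%), 0.605% at 3 d, 0.526% at 7 d and 0.410% at 28 d (0.0765 to 1.17%). They were above the pre-injury value in 10 of 12 animals at 3 d and in 11 of 13 at 7 d, by a mean of 0.286 points ± 0.546 (SD, n = 12) and a median of 0.226 at 3 d and by a mean of 0.194 ± 0.476 (n = 13) and a median of 0.0245 at 7 d, and did not pass the test of time (edgeR adjusted p = 0.445). None of the 13 variants tested in this group was called by edgeR, beside 6.37% of all variants tested, a share at which 13 variants would hold fewer than 1 call.

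Peptostreptococcaceae were 2 variants of Romboutsia, a genus of the small intestine, and were almost restricted to 3 animals. In animals 160, 161 and 162 the family had reads in every column, with means of 0.909, 0.837 and 0.546%. Its highest values were 3.19% in animal 160 at 28 d (95% Wilson interval 3.07 to 3.32%), 2.03% in animal 161 at 7 d and 2.01% in animal 162 at 7 d, while animal 161 was down to 0.00912% at 28 d. In animals 150, 152, 153, 158 and 159 the means were 0.0211% or less, and in animals 149, 151, 154, 155 and 156 no column held a read. The percents of the 2 variants, which differ by 1 base, had a Pearson r of 0.99 over the 89 columns, which share animals and collections and of which most held neither. The family differed between animals (edgeR adjusted p = 2.94e-14) and did not pass the test of time (0.445). The other families were minor. Medians before surgery and at 28 d were 0.176 and 0.141% for Anaerovoracaceae (7 variants, among them the Family XIII AD3011 group with 3 and Family XIII UCG-001 with 1), 0.128 and 0.0714% for Peptococcaceae, and 0.0911 and 0.0781% for Butyricicoccaceae. They were 0.0727 and 0.0602% for the single Defluviitaleaceae variant, 0.0458 and 0.0601% for UCG-010, and 0.0536 and 0.115% for the 3 Oscillospirales variants without a family. None of these 6 passed the test of time, the smallest adjusted p being 0.179 (edgeR, UCG-010).

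A list of genera taken as makers of butyrate, a fatty acid on which colon cells feed, held 23 of the members: 17 variants of Oscillibacter, 3 of Anaerotruncus, and 1 each of Butyricicoccus, Butyricicoccaceae UCG-009 and Intestinimonas. UCG-009 is an uncultured group that was listed for its family only, with a mean of 0.0818% of reads beside 1.24% for the whole list. Faecalibacterium, Agathobaculum, Pseudoflavonifractor, Flavonifractor and Subdoligranulum, also on this list, had no member. Their summed median was 1.09% before surgery (0.356 to 3.04%), 1.28% at 1 d, 0.820% at 7 d (0.224 to 2.37%) and 0.866% at 28 d (0.333 to 3.26%). Of the 21 tested, 1 changed over time, Oscillibacter variant 7, beside 6.37% of all variants tested, and the median fitted changes at 1, 2, 3, 7, 14 and 28 d were -0.05, -0.16, -0.95, -0.66, -0.56 and 0.03 on the log2 scale, beside -0.10, -0.11, -0.30, -0.34, 0.04 and 0.29 over all 377 variants tested. The list's sum changed by a mean of 0.202 points ± 1.11 at 1 d (SD, 8 of 13 animals higher). The change was 0.328 ± 1.61 at 2 d (6 of 13 higher) and -0.203 ± 0.978 at 3 d (5 of 12 higher). At 7 d it was -0.439 ± 0.978 (4 of 13 higher) and at 14 d -0.271 ± 1.36 (4 of 12 higher). At 28 d it was -0.0627 ± 1.38 (6 of 13 higher).

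Across the whole count table, 377 variants were abundant enough to be tested, 134 of them members. The 21 members that were not tested had mean shares of 0.0146% or less and held 0.948% of the members' reads. Over all 6 later collections, 9 members changed with time, 6.72% of those tested, beside 24 variants or 6.37% of all variants tested. Leaving out each animal in turn gave 4 to 8 members, with 4 without animal 149 and 5 without animals 150 or 161. These 9 were Colidextribacter variants 1 and 11, Oscillibacter variant 7, Oscillospiraceae variants 3 and 19, Oscillospiraceae UCG-005 variant 2, Clostridia UCG-014 variants 10 and 27, and Monoglobus variant 2. Colidextribacter variant 1 and Monoglobus variant 2 also passed by DESeq2 and by limma, Oscillospiraceae variant 3 passed by DESeq2 but not by limma, and the other 6 passed by neither. Among single collections, which all share the pre-injury columns, no member was called at 1, 2 or 3 d, where 0% of all variants were called. Unadjusted p-values under 0.05 were held by 5, 9 and 14 members there, DESeq2 called 1, 1 and 2, and limma on centred log-ratios called 0 at each. At 7 d 1 member fell, beside 0.265% of all variants called. At 14 d 2 fell and none rose, beside 1.33% called. At 28 d 2 rose and 2 fell, beside 4.77% called, where 16 of the 18 variants called in the whole table were higher. The median fitted change of the members was -0.37 on the log2 scale at 7 d, -0.19 at 14 d and 0.03 at 28 d, beside -0.34, 0.04 and 0.29 over all variants tested. At the family level 2 of the 12 member families, counting orders where no family was named, changed with time. These were Ruminococcaceae and Monoglobaceae, beside 14.3% of all 28 families tested, and at 14 d 1 fell, beside 10.7% called.

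Some variants were found in more animals at 28 d than before surgery. Oscillospiraceae variant 3 had reads in 6 animals before surgery (median 0, highest 0.486%) and in 11 at 28 d (median 0.0749%, highest 1.36%). It was higher than before surgery in 10 of 13 animals and its mean went from 0.105% to 0.225%. With the animal as a block it rose by 4.96 on the log2 scale, far more than the means did (SE 1.45, edgeR adjusted p = 0.0253), a call lost without animals 149, 155, 158 or 159 and by limma. Oscillibacter variant 7 had reads in 3 animals before surgery, 3 at 1 d, 6 at 2 d and 1 at 3 d. It had reads in 2 at 7 d, 3 at 14 d and 8 at 28 d (median 0.0245%, highest 0.372%), so it did not spread steadily. Its highest value was 1.90% in animal 151 at 14 d, and it changed over time (edgeR adjusted p = 0.00467) without passing at 28 d alone or, over all collections, without animal 161, by DESeq2 (adjusted p = 0.815) or by limma (0.0980), and its mean was 0.0509% before surgery and 0.0798% at 28 d (at 28 d log2 change 4.42, SE 1.64, adjusted p = 0.103). In animal 159 it ran the other way, from 0.589% before surgery to 0 at 14 and 28 d. Oscillospiraceae UCG-005 variant 2 had reads in 4 animals before surgery and in 9 at 7 and at 28 d, and was higher at 28 d in 9 of 13 animals (edgeR adjusted p over all collections 0.0409, lost in 8 of the 13 fits without an animal: 149, 150, 151, 152, 153, 154, 155 or 160). Clostridia UCG-014 variant 10 had reads in 2 animals before surgery and in 5 at 28 d, at most 0.144%, and its mean went from 0.00355 to 0.0271%. It had not risen steadily, with reads in 5 animals at 1 d, 1 at 2 d, 7 at 3 d (mean 0.0362%, highest 0.191%), 6 at 7 d and 5 at 14 d. The blocked fits gave 5.18 at 3 d and 5.02 at 7 d on the log2 scale, neither of which passed (edgeR adjusted p = 0.329 and 0.316), and at 28 d a log2 change of 6.31 (SE 1.70, edgeR adjusted p = 0.0138) that rests on 5 animals that were higher and 2 that were lower and was not called without animals 149, 152 or 161.

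Other variants had fewer reads at a late collection or no steady direction. Oscillospiraceae variant 19 had reads in 6 animals before surgery, in 2 at 3 and 7 d and in 1 at 14 d, while its mean went from 0.0167 to 0.00138% at 14 d. It fell by 5.39 on the log2 scale at 14 d (SE 1.46, edgeR adjusted p = 0.0361), a call lost without animals 149, 150, 159, 161 or 162. No sample held more than 0.0648% of it. Clostridia UCG-014 variant 27 rose and fell before the last collection. Its mean was 0.00407% before surgery, 0.00802% at 1 d (7 animals), 0.00191% at 2 d (3 animals) and 0.00171% at 3 d (2 animals). The variant then had means of 0.00865% at 7 d (6 animals) and 0.00644% at 14 d (5 animals). It had 52 reads over the 13 pre-injury columns, in 5 animals, and none at 28 d, at least 15.3-fold lower when the 28 d level was set at 3 reads over the summed reads of that collection (edgeR adjusted p = 0.0253, not called without animals 150, 151 or 154). Colidextribacter variant 11 had no steady direction, with reads in 3, 6, 2, 6, 1, 6 and 3 animals at the 7 collections in order and at most 0.0472% (edgeR adjusted p over all collections 0.0409, lost in 7 of the 13 fits without an animal: 149, 150, 153, 154, 159, 161 or 162).

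**Figure D3:**
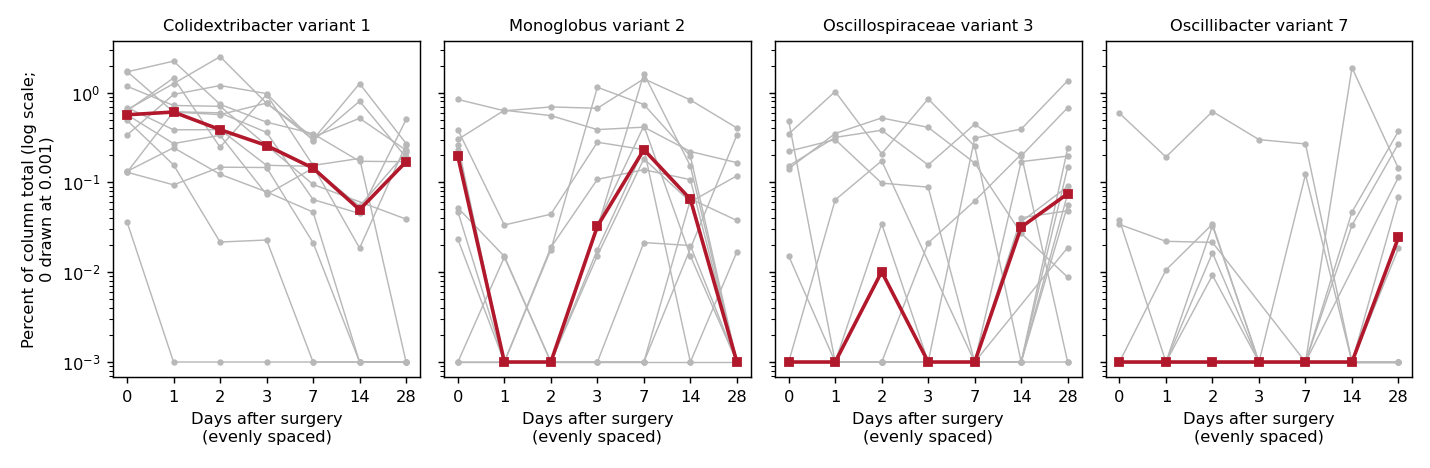
Percent of column total on a log scale (vertical axis, 0 drawn at 0.001) at each collection (horizontal axes, days after surgery, evenly spaced) for 4 variants with a time effect, with a grey line for each animal and a red line for the median. Colidextribacter variant 1 went from a median of 0.567% to 0.0497% at 14 d, and Monoglobus variant 2 had a median of 0 at 1, 2 and 28 d. Reads of Oscillospiraceae variant 3 and Oscillibacter variant 7 were found in more animals at 28 d than before surgery.

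Differences between animals were larger than differences over time for most members. Injury group, and the housing by injury group after surgery, were fixed for each animal. Differences between animals therefore include them, and they cannot be told apart here. In a linear model of each variant's log2 percent (0.01 added) with animal and collection as terms, the animal accounted for a median of 33.8% of the variance and the collection for 5.57%, where their shares of the degrees of freedom were 13.6 and 6.82%. Since the animal term has 12 degrees of freedom and the collection term 6, the shares were compared per degree of freedom. The animal's was the larger for 139 of the 155 variants and the collection's for 16, among them Oscillibacter variant 1, Anaerotruncus variant 2, Colidextribacter variant 8 and Clostridia UCG-014 variants 8, 10 and 27. The share of the animal was highest for UCG-010 variant 2 (94.3%), which was found in 14 columns of 2 animals, and was 79.3% for Romboutsia variant 1. By edgeR's test of the animal term, chosen after the data were seen and treating the collections of an animal as independent, 81 of 134 members differed between animals, beside 67.9% of all variants tested. At the family level 8 of 12 differed, beside 71.4% of all families. The families that did not pass were UCG-010, Butyricicoccaceae, Peptococcaceae and Anaerovoracaceae.

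**Figure D4:**
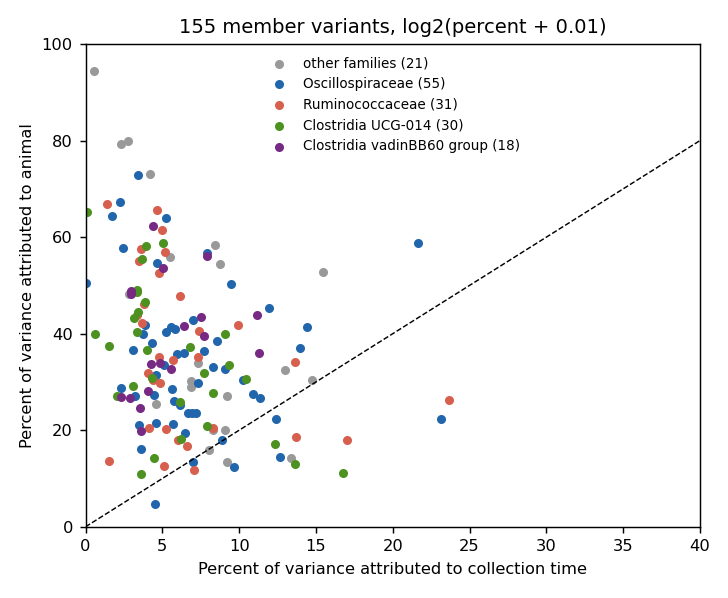
Percent of the variance of log2(percent + 0.01) attributed to animal (vertical axis) against that attributed to collection time (horizontal axis), with a point for each of the 155 variants colored by family and a dashed line where both are equal per degree of freedom. Of the points, 139 lie above the line and 16 below it.

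Most members were shared widely but unevenly. Reads were found in all 13 animals for 63 variants and in 6 or fewer for 15, and the median variant was found in 12 animals and 42 columns. All variants with a taxonomy entry, from which the members were chosen, were in at least 9 columns, with a median of 44. Variants without an entry had a median of 1 column. Wide sharing was therefore partly set by the choice and is not particular to the members. The 12 most abundant variants carried 42.5% of the members' reads. For 9 variants more than 50% of the summed percent came from a single animal, for example 65.8% from animal 151 for Clostridia UCG-014 variant 3 and 67.2% from animal 150 for Oscillibacter variant 8. The number of members seen per column had a median of 84 before surgery and 76 at 28 d, and of 72 and 71 when each column was thinned to 10000 reads. By animal the thinned medians ran from 59 in animal 158 to 82 in animal 156. Animal 158 also had the lowest mean sum, 4.99% of reads, and animal 151 the highest, 14.4%.

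Columns of the same animal were more alike in their members than columns of different animals. Pairs of different animals mix sham and CCI mice, which were housed apart after surgery, so injury group and housing are part of this contrast. The Bray-Curtis dissimilarity, which is 0 for identical and 1 for disjoint profiles, was calculated over the members' percents and had a median of 0.418 over 262 pairs of columns of the same animal. It was 0.568 over 3654 pairs of different animals and 0.557 over the 522 of these pairs taken at the same collection. In all 13 animals the median to the animal's own columns was below that to other animals, by least in animal 160 (0.533 and 0.575) and by most in animal 149 (0.378 and 0.597). For 68 of the 89 columns the nearest column was of the same animal. Within an animal, the median dissimilarity to the pre-injury column was 0.341 at 1 d, 0.375 at 2 d and 0.417 at 3 d. It was 0.378 at 7 d, 0.450 at 14 d and 0.489 at 28 d, so it did not rise steadily. The ranges at 1, 7 and 28 d were 0.240 to 0.449, 0.209 to 0.708 and 0.339 to 0.645 over the 13 animals.

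**Figure D5:**
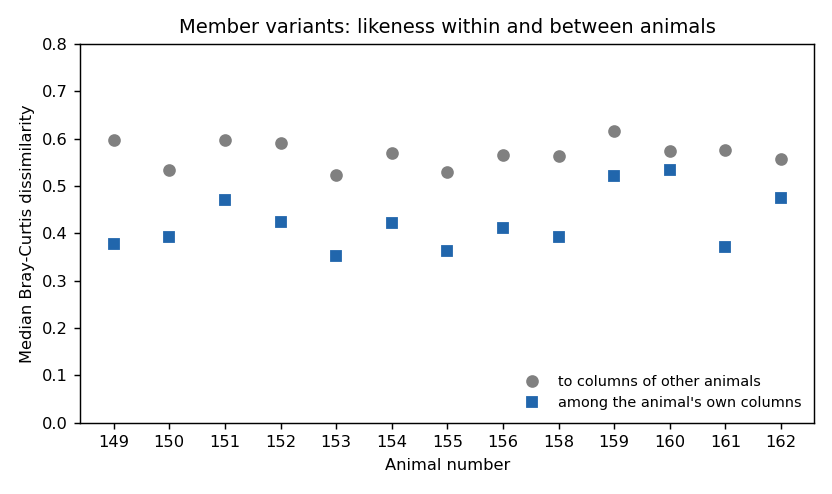
Median Bray-Curtis dissimilarity of member profiles (vertical axis, 0 identical and 1 disjoint) for each animal number (horizontal axis), with blue squares for pairs among the animal's own columns and grey circles for pairs with columns of other animals. The square lies below the circle in all 13 animals, closest in animal 160.

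Some members were nearly identical in sequence. Among the members, 12 pairs differed by 1 base and 23 by 1 or 2, and 40 variants were in such a pair. Over the 89 columns, which share animals and depth, the percents of the 23 pairs had a median Pearson r of 0.065, with 7 pairs below 0 and 3 above 0.5. This r mixes levels of the animals with changes within them, and time courses within animals were not compared. Those 3 were the Romboutsia pair, Ruminococcaceae variants 2 and 10 (0.76) and Incertae Sedis variants 3 and 4 (0.53). Colidextribacter variants 9 and 11 differed by 1 base and were found in 21 and 27 columns without sharing any, although 7 animals held both. Oscillospiraceae variant 3 differed by 1 base from Oscillospiraceae variant 5 (r = 0.26), and Oscillibacter variant 7 by 2 bases from Oscillibacter variant 2 (r = 0.08), which had reads in every column that held variant 7. Genomes can carry several 16s rRNA gene copies, so 1 strain can give more than 1 variant, and different strains can share one.

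Beside the members, Lachnospiraceae had a median of 26.0% of reads before surgery (8.64 to 50.4%), 18.0% at 7 d and 20.4% at 28 d, and did not pass the family test of time (edgeR adjusted p = 0.214). All other variants with a taxonomy entry had medians of 65.1, 72.6 and 71.4%. Since shares of a column sum to a fixed total, a lower share of the members does not show fewer of these bacteria.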

How the data were processed

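The 16s rRNA gene was amplified and sequenced from fecal DNA. The authors filtered and trimmed the reads, inferred variants with DADA2, removed chimeras and deposited whole read counts per variant and column without normalization. Taxonomy was from SILVA, release 132 in the paper and 138 in the record. The amplified region is not given in the sources used here. Columns were assigned to collection times by name, and 2 of 91 with under 10000 reads were not used. The deposited sample table (weights, cages, extraction batches) was not used, because it names mice by injury group and replicate and the columns by animal number, with no key between them. The members and lists were chosen with earlier results of these data known. Named variants were the 12 of highest mean percent, the 10 of smallest p among those with a time effect, and at each collection the 2 called with the largest change each way. They are numbered by total reads within their taxon.

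Counts were tested with edgeR 4.0.16 (quasi-likelihood F test, TMM scaling, filterByExpr, library size the column total) in R 4.3.3, with animal as a block and collection as a factor. P-values were corrected (Benjamini-Hochberg) over all 377 variants or 28 families, threshold 0.05. The families include orders where no family was named and a row of all variants without a taxonomy entry. The SE is the fitted change divided by the root of its F. Columns of the same animal deviated together (correlations of 0.198 to 0.562 within an animal, mean -0.037 between animals). Alternatives used DESeq2 1.42.0 and limma 3.58.1. Nothing in the labels says how the repeated collections of an animal depend on each other, and p-values treat them as independent beside the block.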

Additional observations from a re-analysis of the deposited data

How the results depend on the processing

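Counts of members called depended on the processing more than directions did. Without the replicate block the members with a time effect went from 9 to 0, those called at 7, 14 and 28 d to 0, 0 and 1, and the families from 2 to 0. DESeq2 gave 5 variants for time, 1, 1, 2, 4, 6 and 9 at 1, 2, 3, 7, 14 and 28 d, and 4 families, and limma on centred log-ratios gave 4 for time, 2 at 28 d and 1 family. With no filter on low counts there were 0 calls at 7 d, 0 at 14 d and 0 families. The stricter filter, which tested 61 members, gave 2 for time, 1 at 14 d, 1 at 28 d and 34 with an animal effect. Thinning to 10000 reads (49 tested) gave 4, 1, 1 and 38, with 4 families. Without 3 and 14 d there were 5 for time, 0 at 7 d, 1 at 28 d, 1 family and 45 with an animal effect. Leaving out each animal gave 4 to 8 members for time (4 without animal 149, 5 without 150 or 161), 0 to 1 at 3 d (1 without 154), 0 to 1 at 7 d, 0 to 2 at 14 d (0 without 159 or 162), 2 to 5 at 28 d (2 without 149) and 0 to 2 families (0 without 152 or 162). The cause of these changes was not tested. Without the scaling factor the median change of all variants tested was -0.48 at 7 d, -0.10 at 14 d and 0.12 at 28 d, and 7 members were called for time. Of the alternative values of named taxa, 200 kept direction and call, 48 lost the call, 7 gained it and 0 reversed. Colidextribacter variant 1 passed the test of time in 21 of 22 settings, the exception being the fit without the block. Of the variants with a time effect, the stricter filter tested only Colidextribacter variant 1 and Monoglobus variant 2.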
